A study of Mus musculus with 6 samples.

Results

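The BCL2 family of cell survival and death genes was measured in samples labelled T cells. Mouse T cells had been grown beside tumour cells of the mouse ovarian cancer line ID8, which had first been given 40 µM cisplatin or PBS. The set was chosen by name and holds 10 of the 54532 genes of the deposited table: Bcl2, Bcl2l1, Bcl2l11, Mcl1, Bcl2a1b, Bcl2a1d, Bax, Bak1, Bid and Bad. In 3 libraries the T cells had met ID8 cells pretreated with cisplatin (the cisplatin libraries), and in the other 3 they had met ID8 cells pretreated with PBS (the control libraries). The T cells of both groups came from spleens of C57BL/6 mice, were isolated with a Pan T-cell kit, were kept with IL-2 and were pre-activated with beads carrying antibodies to CD3 and CD28. Cisplatin was thus given to the tumour cells before the co-culture, and whether any of it reached the T cells was not measured. Nothing in the sources used here says that the libraries of a group came from separate mice or cultures, so that the p-values measure only the spread between these libraries.

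BCL2 family proteins decide whether the outer membrane of the mitochondrion is opened, the step that releases cytochrome c and commits a cell to intrinsic apoptosis. Pro-survival members (BCL2, BCL-XL encoded by Bcl2l1, MCL1 and the A1 proteins encoded by the Bcl2a1 copies) bind and restrain the pore-forming members BAX and BAK. BH3-only members (BIM encoded by Bcl2l11, BID and BAD) bind the pro-survival proteins or activate the pore formers. In lymphocytes, MCL1 and BCL2 sustain resting cells, BCL-XL and A1 are induced on activation through the antigen receptor, and BIM drives the contraction of T cells after a response.

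The deposited values are FPKM, that is fragments scaled for the length of the gene and the depth of the library, so that levels can be set side by side between genes. Between libraries the comparison also depends on the mix of RNA in each, for which FPKM is not scaled. The depth was even, with 30606569 to 32169496 reads on genes per library as rebuilt from the FPKM, and replicates of a group differed by more than sampling noise (chi-square per degree of freedom 5.36 to 6.44). Markers of the cells moved between the groups. The 20 T-cell markers summed to 1679 to 1783 FPKM in control and 2652 to 2712 FPKM in cisplatin libraries, and all 20 were higher at the test used below. The 20 ID8 markers summed to 1992 to 2089 FPKM in control and 318.2 to 337.4 FPKM in cisplatin libraries, and 15 of the 16 tested were lower. The 10 B-cell markers, which a Pan T-cell isolation should deplete, were not at 0 but summed to 1700 to 1787 FPKM in control and 3638 to 3711 FPKM in cisplatin libraries, and all 10 were higher. Of the 11 myeloid markers 9 were higher and 1 lower (84.56 to 88.76 FPKM in control, 163.3 to 186.3 FPKM in cisplatin libraries), while the 10 neutrophil markers summed to 2.492 to 3.536 FPKM in control and 4.792 to 5.935 FPKM in cisplatin libraries. Of the 3 neutrophil markers tested Mpo and Elane were higher, by 2.365 and 2.504 on the log2 scale, and Ly6g and Camp were at 3 reads or fewer in every library. The part of these markers in the results on the BCL2 family was not tested. In RNA from a whole culture, fewer cells of a type and less RNA per cell cannot be told apart. For this reason each change is given on the deposited scale and, where it matters, after the libraries were centred on the 20 T-cell markers, which sets their mean log2 level equal in all libraries and moves the median change of all tested genes from 0.03 to -0.54.

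Bcl2a1b and Bcl2a1d are near-identical copies, and their sequences bear on how far their values can be told apart. Mouse chromosome 9 carries several copies of Bcl2a1. The first 120 of the 516 coding bases of the 3 expressed copies, from the GENCODE M21 transcripts, are shown. They hold 7 of the 12 positions of the whole coding sequence at which the 3 copies are not all alike. Capitals mark these 7 positions, not all of which separate Bcl2a1b from Bcl2a1d. Bases outside the coding sequence are not shown.
Bcl2a1a: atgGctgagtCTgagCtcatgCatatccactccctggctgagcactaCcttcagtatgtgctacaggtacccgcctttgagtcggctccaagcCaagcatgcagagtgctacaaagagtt
Bcl2a1b: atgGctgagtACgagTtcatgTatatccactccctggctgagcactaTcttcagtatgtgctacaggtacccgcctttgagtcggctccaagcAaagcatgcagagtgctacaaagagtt
Bcl2a1d: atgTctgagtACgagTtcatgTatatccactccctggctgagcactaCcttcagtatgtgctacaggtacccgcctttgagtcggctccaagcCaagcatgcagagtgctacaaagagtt
Bcl2a1b and Bcl2a1d differed at 6 coding bases (98.84% identity), with a longest shared run of 217 bases. Of all 100-base windows along the Bcl2a1d transcript, 54.71% also occurred without mismatch in another copy, against 31.06% for Bcl2a1b and 43.47% for Bcl2a1a. The read length and the treatment of reads that match several genes are not given in the sources used here, so the split of reads between the copies is uncertain, and the summed value of the copies is given beside each.

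The levels of the 10 genes spanned a wide range in both groups. Mcl1 was highest of the 10 and Bax came next in both groups, with no overlap between the libraries of neighbouring genes at these places. In control libraries Bak1 followed, then Bcl2, Bcl2a1d, Bcl2l11 and Bcl2l1, whose neighbouring ranges overlapped (means of 12.65 to 13.19 FPKM), then Bad, Bid and Bcl2a1b. In cisplatin libraries Bcl2a1d stood beside Bak1 with overlapping ranges (means of 25.5 and 23.68 FPKM), above Bcl2 and Bcl2l11. Bcl2l1 stood lower, beside Bid and Bad (means of 8.206 to 8.963 FPKM), and Bcl2a1b was again lowest.

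**Figure D1:**
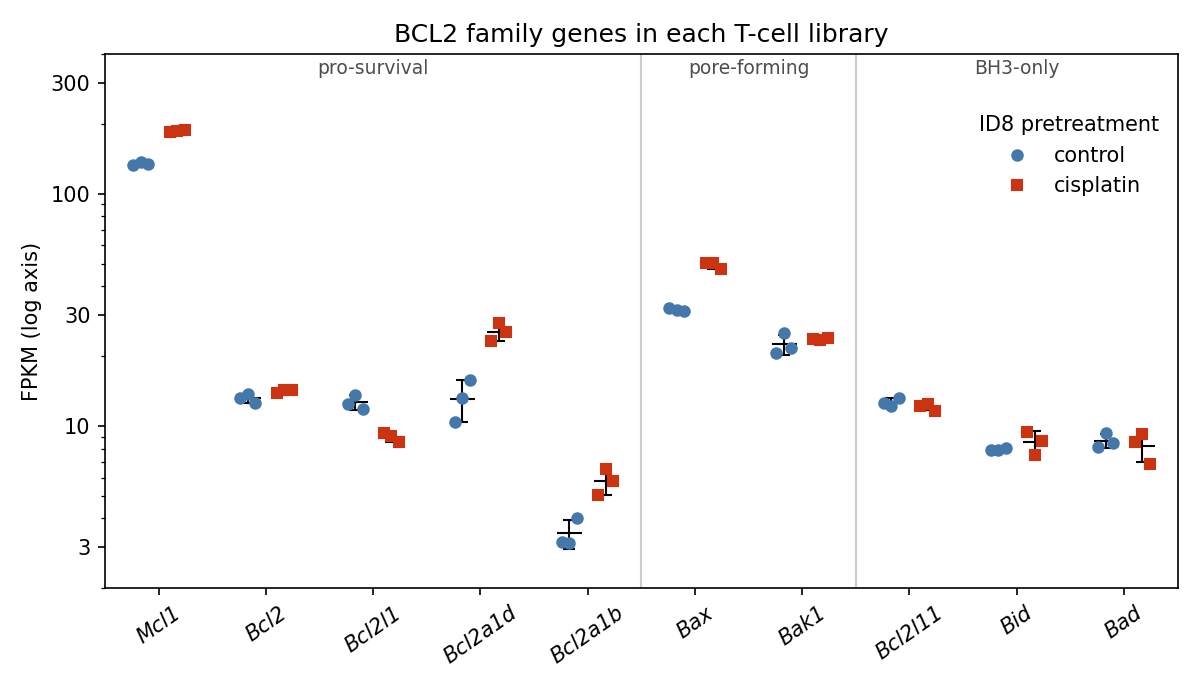
Levels of the 10 genes in each library, in FPKM on a log axis, with control libraries as blue circles and cisplatin libraries as red squares; the long horizontal mark is the mean and the bars are 1 SD over 3 libraries. Mcl1 lies between 133.5 and 136.9 FPKM in control and between 183.7 and 187.9 FPKM in cisplatin libraries, Bcl2l1 is lower in every cisplatin library, and Bid, Bad, Bcl2l11 and Bak1 overlap between the groups.

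The question put to each gene was whether its level differed between the cisplatin and the control libraries. Both held RNA of ID8 and B-cell markers beside that of T cells. Changes were tested with limma on log2(FPKM + 0.1) over 15874 genes, two-sided, with Benjamini-Hochberg adjustment over all of them, and a gene passed at an adjusted p under 0.05. Of the 10 genes, 4 were higher with cisplatin (Mcl1, Bcl2a1d, Bcl2a1b and Bax), 1 was lower (Bcl2l1) and 5 did not pass (Bcl2, Bak1, Bcl2l11, Bid and Bad), where 56.5% of all genes tested passed, 27.5% higher and 29% lower. The share of 5 of 10 was thus near that of all genes. The median log2 fold change of the 10 was 0.10, and that of all tested genes 0.03. None of the 10 reached 2-fold, where 16.9% of all genes tested passed with a change of at least 2-fold (4.11% higher and 12.8% lower). The groups did not overlap in 6 of the 10 (Mcl1, Bcl2, Bcl2l1, Bcl2a1d, Bcl2a1b and Bax), where 64.2% of all tested genes did not overlap. After centring on the T-cell markers 8 of the 10 passed, where 70.7% of all genes did. Of these 8, 1 was higher (Bcl2a1d) and 7 were lower, where 4.8% of all genes passed as higher and 65.9% as lower, and Bax and Bcl2a1b did not pass. Bcl2l1 was then the 1 member past 2-fold, where 24.3% of all genes were past it (0.895% higher and 23.4% lower). The median of the 10 was then -0.47, beside -0.54 for all genes.

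Of the 5 pro-survival genes 3 were higher, 1 was lower and 1 did not pass on the deposited scale, and 1 was higher and 3 were lower when centred on the T-cell markers. Among all genes 27.5% passed as higher and 29% as lower on the deposited scale, and 4.8% and 65.9% when centred. Mcl1 (ENSMUSG00000038612, GRCm38 chr3:95658788-95663176, plus strand) encodes a short-lived protein that holds BIM and BAK. Its level was 133.5, 136.9 and 134.7 FPKM in the control libraries and 183.7, 186.1 and 187.9 FPKM in the cisplatin libraries. Every cisplatin library was above every control library. The log2 fold change was 0.46 (SE 0.03, 95% interval 0.40 to 0.52, adjusted p = 1.2e-05 in limma), while after centring on the T-cell markers it was -0.11 (adjusted p = 0.0087), so that its direction rests on the scaling. With 13703 reads or more behind each value, the spread between replicates was 1.25% (coefficient of variation) in control and 1.13% in cisplatin libraries.

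Bcl2 (ENSMUSG00000057329, chr1:106538178-106714274, minus strand), the founding member, is kept up in naive and memory T cells by cytokines of the common gamma chain. It was measured at 13.18, 13.78 and 12.61 FPKM in the control libraries and at 13.88, 14.34 and 14.35 FPKM in the cisplatin libraries. The groups did not overlap, yet the gap between the highest control and the lowest cisplatin library was small. The log2 difference of 0.11 (SE 0.05, 95% interval -0.0033 to 0.21) did not pass (adjusted p = 0.09 in limma). It passed at 0.22 (adjusted p = 0.0046) after quantile normalization, at 0.19 (adjusted p = 0.00053) in limma's voom on rebuilt reads, and with the opposite sign at -0.47 (adjusted p = 0.00014) after centring on the T-cell markers.

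Bcl2l1 (ENSMUSG00000007659, chr2:152780668-152831728, minus strand), which encodes BCL-XL, was the only one of the 10 genes that fell on the deposited scale. Its level was 12.5, 13.65 and 11.79 FPKM in the control libraries and 9.291, 9.08 and 8.518 FPKM in the cisplatin libraries. Every cisplatin library lay below every control library. The log2 fold change was -0.49 (SE 0.07, 95% interval -0.65 to -0.33, adjusted p = 0.00081 in limma), and it was negative and passed under all 18 alternative settings, between -1.06 when centred on the T-cell markers and -0.37 after quantile normalization. ID8 markers were lower in the same libraries, with a median log2 fold change of -2.36, and their part in the fall of Bcl2l1 was not tested.

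Bcl2a1d (ENSMUSG00000099974, chr9:88723285-88731914, minus strand) had the largest change of the 10 on the deposited scale, whereas Bcl2l1 had it when centred on the T-cell markers. It was measured at 10.42, 13.18 and 15.75 FPKM in the control libraries and at 23.2, 27.83 and 25.46 FPKM in the cisplatin libraries. The groups did not overlap, although the control libraries were spread by 20.3% (coefficient of variation) where counting alone would give 5.40%. The log2 fold change was 0.97 (SE 0.15, 95% interval 0.61 to 1.33, adjusted p = 0.0015 in limma), and 0.40 (adjusted p = 0.033) after centring on the T-cell markers, so that it was the one member that passed as higher on both scales. It crossed 2-fold after quantile normalization and in voom on rebuilt reads (1.06 in both), without cisplatin replicate 1 (1.04) and without control replicate 3 (1.11). When centred on the T-cell markers, the median log2 fold change was 0.55 for myeloid, 0.03 for B-cell and -2.93 for ID8 markers. The part of these cells in the change of Bcl2a1d was not tested.

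Bcl2a1b (ENSMUSG00000089929, chr9:89199209-89207827, plus strand), the lowest of the 10, was measured at 3.18, 3.143 and 4.029 FPKM in the control libraries and at 5.03, 6.5 and 5.816 FPKM in the cisplatin libraries. These values rest on 77 to 101 reads in control and 133 to 176 reads in cisplatin libraries, and the groups did not overlap. The log2 fold change was 0.73 (SE 0.13, 95% interval 0.41 to 1.05, adjusted p = 0.0033 in limma) but 0.16 (adjusted p = 0.29) after centring on the T-cell markers. In the GENCODE M21 annotation 401 of its 817 exonic bases (49.08%) also belong to Gm29094 on the same strand, which was listed at 0 FPKM in all libraries. Bax likewise shares 192 of its 1576 exonic bases (12.18%) with Gm45808 on the same strand, listed at 0 FPKM as well. How reads in shared bases were counted is not given in the sources used here, so the levels of Bcl2a1b and Bax may be understated.

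Since reads of the copies may be exchanged, the reads of Bcl2a1a, Bcl2a1b and Bcl2a1d were also summed. The sum was 399, 456 and 607 reads in the control libraries and 947, 1188 and 1032 reads in the cisplatin libraries. The sums did not overlap between the groups whichever copy the reads came from. Bcl2a1d took 67.67% to 74.78% of the summed reads in control and 67.0% to 68.99% in cisplatin libraries. Bcl2a1a, a copy outside the 10 genes, was higher by 1.55 on the log2 scale (adjusted p = 0.0034 in limma) and by 0.98 when centred on the T-cell markers, and Bcl2a1c was listed at 0 in all libraries.

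Of the pore-forming genes 1 was higher and 1 did not pass, where 27.5% of all genes were higher and 29% lower. Bax (ENSMUSG00000003873, chr7:45461697-45466898, minus strand) encodes the pore former that moves from the cytosol to mitochondria and is a known transcriptional target of p53. Its level was 32.27, 31.66 and 31.28 FPKM in the control libraries and 50.21, 50.32 and 47.4 FPKM in the cisplatin libraries. The cisplatin libraries were all above the control libraries. The log2 fold change was 0.63 (SE 0.04, 95% interval 0.55 to 0.72, adjusted p = 1.1e-05 in limma), while after centring on the T-cell markers it was 0.06 (adjusted p = 0.24) and no longer passed. On the deposited scale the median log2 fold change was 0.58 for T-cell, 0.60 for B-cell, 1.12 for myeloid and -2.36 for ID8 markers. The part of these cells in the change of Bax was not tested.

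Bak1 (ENSMUSG00000057789, chr17:27019810-27029009, minus strand) encodes the pore former that sits in the mitochondrial membrane. It was measured at 20.73, 25.05 and 21.73 FPKM in the control libraries and at 23.66, 23.52 and 23.86 FPKM in the cisplatin libraries. The cisplatin libraries lay within the range of the control libraries, of which replicate 2 stood above the others. The log2 difference was 0.08 (SE 0.07, 95% interval -0.09 to 0.25, adjusted p = 0.39 in limma). Without control replicate 2 it was 0.16 and passed, in voom on rebuilt reads it was 0.16 and passed, and centred on the T-cell markers it was -0.49 (adjusted p = 0.00049).

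None of the 3 BH3-only genes passed on the deposited scale, where 56.5% of all genes did. All 3 passed as lower when centred on the T-cell markers, where 65.9% of all genes did. Bcl2l11 (ENSMUSG00000027381, chr2:128126038-128162547, plus strand), which encodes BIM, was measured at 12.61, 12.19 and 13.22 FPKM in the control libraries and at 12.24, 12.47 and 11.65 FPKM in the cisplatin libraries. The groups overlapped. The log2 difference was -0.06 (SE 0.05, 95% interval -0.18 to 0.05, adjusted p = 0.31 in limma), and -0.64 (adjusted p = 2.9e-05) when centred on the T-cell markers, and its sign turned, without passing, after quantile normalization (0.05) and in voom.

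Bid (ENSMUSG00000004446, chr6:120891930-120916853, minus strand) links death receptors to mitochondria once its protein is cut by caspase-8. Its level was 7.863, 7.901 and 8.078 FPKM in the control libraries and 9.444, 7.523 and 8.613 FPKM in the cisplatin libraries. The cisplatin libraries enclosed the control libraries. The log2 difference was 0.09 (SE 0.08, 95% interval -0.11 to 0.30, adjusted p = 0.38 in limma), and -0.48 (adjusted p = 0.0027) when centred on the T-cell markers.

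Bad (ENSMUSG00000024959, chr19:6941861-6951898, plus strand) encodes a protein that binds BCL2 and BCL-XL when it is not phosphorylated by survival kinases. It was measured at 8.132, 9.289 and 8.476 FPKM in the control libraries and at 8.544, 9.201 and 6.872 FPKM in the cisplatin libraries. The groups overlapped, with cisplatin replicate 3 lowest. The log2 difference was -0.08 (SE 0.11, 95% interval -0.35 to 0.19, adjusted p = 0.58 in limma), and -0.65 (adjusted p = 0.0017) when centred on the T-cell markers. Its sign turned without cisplatin replicate 3 (0.04), after quantile normalization (0.05) and in voom (0.0031), where it did not pass either. Exons of Bad, Bid, Bak1 and Bcl2 overlap exons of genes on the opposite strand, for 20.48% of exonic bases with Gpr137, 17.69% with Bcl2l13, 18.16% with Ggnbp1 and 6.094% with D630008O14Rik. Whether reads were counted by strand is not given in the sources used here, so reads of such pairs may not be told apart.

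**Figure D2:**
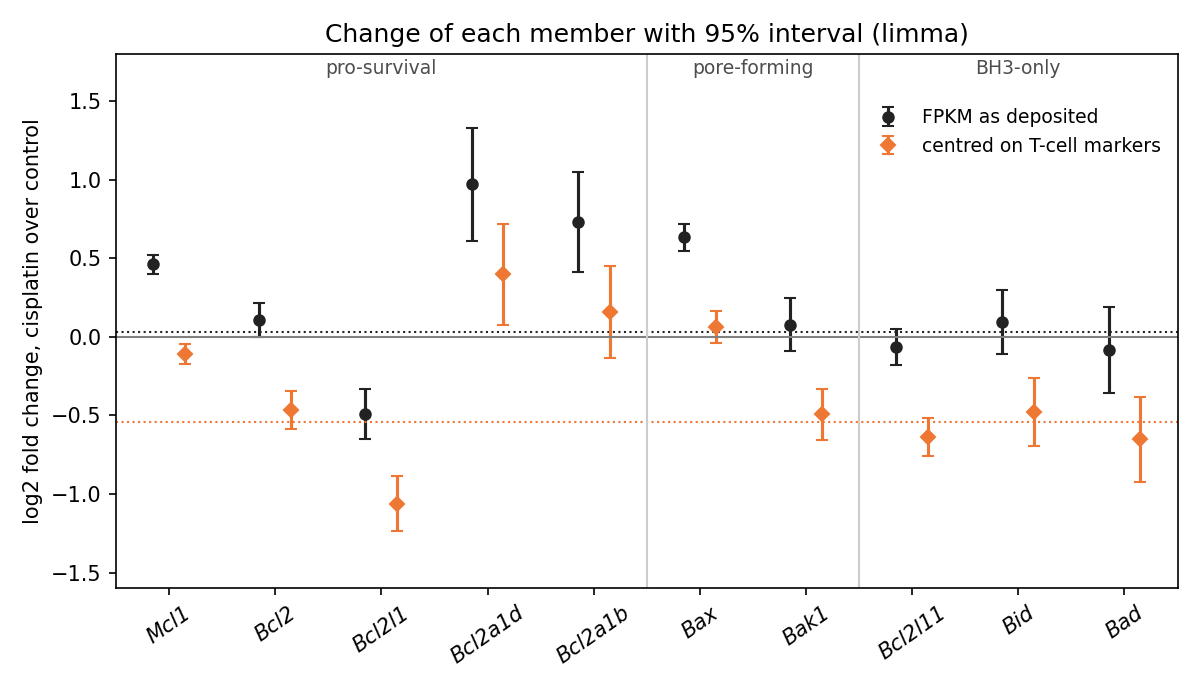
Log2 fold change of each gene, cisplatin over control, with its 95% interval from limma, on the deposited FPKM (black circles) and after centring the libraries on the 20 T-cell markers (orange diamonds); dotted lines are the median of all 15874 tested genes on each scale. Bcl2l1 is below 0 and Bcl2a1d above 0 on both scales, whereas Mcl1 changes sign, from 0.46 to -0.11, and the intervals of Bax and Bcl2a1b include 0 once centred.

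Summed by role, the 5 pro-survival genes came to 172.8, 180.7 and 178.9 FPKM in the control libraries and to 235.1, 243.8 and 242.0 FPKM in the cisplatin libraries, of which Mcl1 made up most. Bax and Bak1 together came to at most 56.71 FPKM in the control libraries and to 73.87, 73.84 and 71.26 FPKM in the cisplatin libraries. The BH3-only genes together came to 28.6, 29.38 and 29.77 FPKM in the control libraries and to 30.23, 29.19 and 27.13 FPKM in the cisplatin libraries. The pro-survival and pore-forming sums did not overlap between the groups and lay higher with cisplatin on the deposited scale, by log2 differences of 0.44 and 0.43, which turn to -0.13 and -0.14 when centred on the T-cell markers. The BH3-only sums overlapped. Of all single genes tested 64.2% did not overlap, and no such share was formed for sums of other genes.

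The balance of a survival gene against a death gene within a library is not moved by a single scaling factor per library, such as centring on the T-cell markers, but is moved by quantile normalization. Ratios of a survival to a death gene can also move with the mix of cells in a library, whose part was not tested. Of such ratios of FPKM 6 were formed as a description, without a test. Other pairs were not formed, such as Mcl1 to Bak1 and Bcl2l1 to Bcl2l11. On the deposited scale the log2 fold changes were 0.46 for Mcl1, 0.08 for Bak1, -0.49 for Bcl2l1 and -0.06 for Bcl2l11. The ratio of Bcl2 to Bax was 0.4082, 0.4353 and 0.403 in the control libraries and 0.2765, 0.285 and 0.3027 in the cisplatin libraries, lower by a log2 difference of -0.53. The ratio of Bcl2l1 to Bak1 was 0.603, 0.5449 and 0.5425 in the control libraries and 0.3927, 0.3861 and 0.3571 in the cisplatin libraries, with a log2 difference of -0.57. Bcl2l1 to Bad went the same way, from 1.391 to 1.537 in control to 0.9868 to 1.239 in cisplatin libraries. Each of these named ratios thus lay lower in every cisplatin library than in any control library. The direction depends on the genes chosen, and whether it goes with the role of the death gene was not tested.

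The other ratios formed, of Mcl1 to Bcl2l11, Mcl1 to Bid and Bcl2 to Bcl2l11, lay higher with cisplatin. Mcl1 to Bcl2l11 was 10.59, 11.22 and 10.19 in the control libraries and 15.01, 14.93 and 16.13 in the cisplatin libraries, a log2 difference of 0.53. Mcl1 to Bid was 16.98, 17.32 and 16.67 in the control libraries and 19.46, 24.74 and 21.82 in the cisplatin libraries, a log2 difference of 0.37, which became 0.22 after quantile normalization. Bcl2 to Bcl2l11 had the smallest log2 difference of the 6, 0.17, with a highest control ratio of 1.13 and a lowest cisplatin ratio of 1.134, and the difference was 0.11 without control replicate 3. The groups overlapped in none of the 6 ratios, which share members and are not independent of each other. Of all single genes tested 64.2% did not overlap either, and no such share was formed for ratios of other genes.

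**Figure D3:**
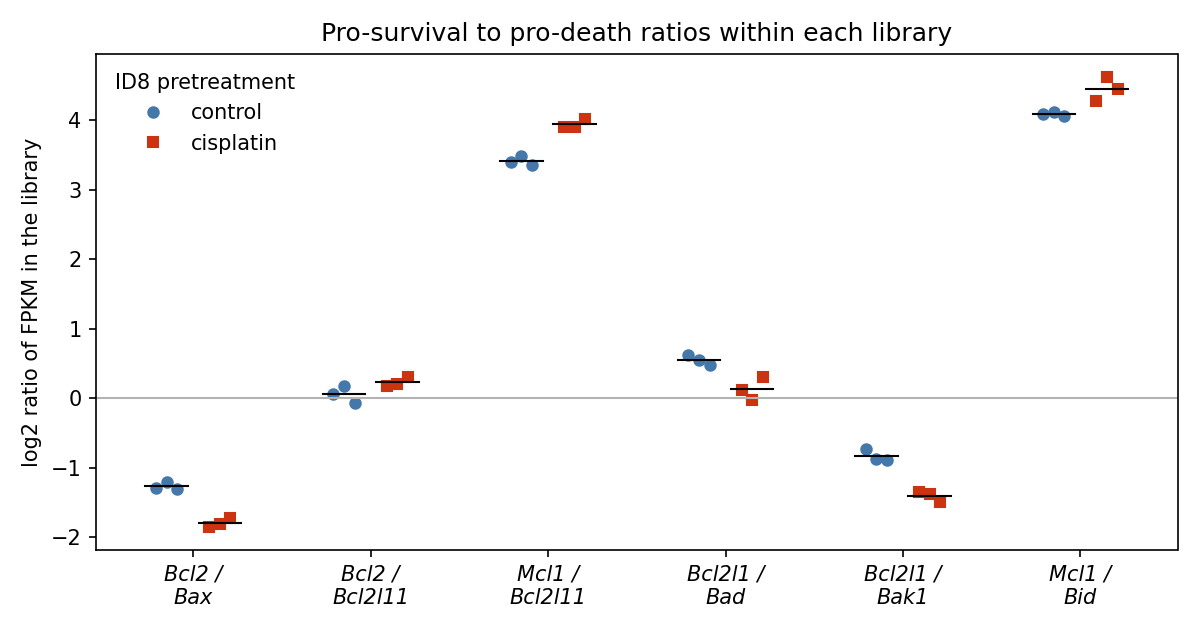
Log2 ratio of a survival gene to a death gene within each library, with control libraries as blue circles, cisplatin libraries as red squares and the group mean as a line; the ratios are not changed by a single factor per library and are changed by quantile normalization. The ratios of Bcl2 to Bax, Bcl2l1 to Bad and Bcl2l1 to Bak1 lie lower in cisplatin libraries and the ratios of Bcl2 and Mcl1 to Bcl2l11 and of Mcl1 to Bid lie higher, with no overlap. Ratios can also move with the mix of cells in a library, whose part was not tested.

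The promoters of the 10 genes were read from RefSeq (GRCm38.p6, 250 bases before to 50 after a start site), which held 14 promoters and all 10 genes. They were searched on both strands for the letters of binding motifs of factors that are known to act on the family. The NF-kB motif (GGG, NN, TT, N and CC in one run, N being any base) was found in 4.79% of all 32851 promoters. Among the 14 it was found in the only promoter of Mcl1, in 1 of 3 of Bcl2l1 and in 1 of 2 of Bcl2l11. The FOXO motif GTAAACA was found in a promoter of Bcl2l11 and in 3.65% of all promoters. The STAT motif TTCNNNGAA (8.30% of all promoters) and the p53 motif (CATG, then 6 bases of any kind, then CATG; 0.712%) were found in no promoter of the 10 genes. The promoters of Mcl1 (chr3:95658471-95658770, plus strand) and of the first Bcl2l11 start site (chr2:128125788-128126087, plus strand) are shown because both hold the NF-kB letters. On the deposited scale Mcl1 passed as higher and Bcl2l11 did not pass, and when centred on the T-cell markers both passed as lower. Bcl2l1, which also holds these letters, passed as lower on both scales. The part of the letters in these changes was not tested. Capitals mark the matches.
Mcl1: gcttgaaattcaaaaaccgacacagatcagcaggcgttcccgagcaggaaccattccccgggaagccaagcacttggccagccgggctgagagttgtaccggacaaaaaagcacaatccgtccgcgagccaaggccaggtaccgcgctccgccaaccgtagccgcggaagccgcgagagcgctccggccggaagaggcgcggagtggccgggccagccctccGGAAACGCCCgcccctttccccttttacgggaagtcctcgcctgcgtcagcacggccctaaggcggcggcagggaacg
Bcl2l11: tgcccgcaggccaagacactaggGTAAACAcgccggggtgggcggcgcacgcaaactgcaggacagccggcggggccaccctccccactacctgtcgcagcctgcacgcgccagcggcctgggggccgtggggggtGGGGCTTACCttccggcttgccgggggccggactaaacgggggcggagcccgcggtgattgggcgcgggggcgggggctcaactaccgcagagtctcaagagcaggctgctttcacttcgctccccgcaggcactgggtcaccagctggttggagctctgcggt
In Mcl1 the match is on the minus strand at position -28 from the start site. In Bcl2l11 the first run of capitals, at -227, is the FOXO match and the second, at -114, the NF-kB match. A match of letters is not a binding site, and binding was not measured.

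On the deposited scale the rest of the pathway moved in both directions, and after centring on the T-cell markers the genes that passed were lower except Bcl2a1a. Of 14 further genes of the family 10 were tested, of which 2 were higher and 5 lower in limma, and 1 higher and 6 lower when centred. Among all genes 27.5% were higher and 29% lower, and 4.8% and 65.9% when centred. Bok, a BAX-like gene, was measured at 58.24, 58.76 and 59.44 FPKM in the control libraries and at 5.609, 4.969 and 4.276 FPKM in the cisplatin libraries. The log2 fold change of Bok was -3.55 (adjusted p = 4e-07 in limma), beyond that of any of the 10 genes, and ID8 markers fell in the same libraries. Bbc3, which encodes the BH3-only protein PUMA, was higher by 0.62 (adjusted p = 0.00021 in limma), and by 0.05 when centred on the T-cell markers, where it did not pass. Bmf, another BH3-only gene, was lower, with a log2 fold change of -0.66 (adjusted p = 0.00066 in limma).

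Of 20 genes of caspase activation downstream of mitochondria 7 were higher, 7 lower and 6 did not pass, with a median log2 fold change of -0.02, where 27.5% of all genes were higher and 29% lower. When centred on the T-cell markers 18 were lower and the others did not pass (limma), where 65.9% of all genes were lower. The centred median was -0.59, beside -0.54 for all genes. Vdac1, a channel of the outer mitochondrial membrane, was at 136.0 ± 1.83 FPKM (SD, n = 3) in control and 53.66 ± 1.12 FPKM (SD, n = 3) in cisplatin libraries, the only one of these 20 past 2-fold (log2 fold change -1.34, adjusted p = 2e-07 in limma). Endog, a mitochondrial nuclease, was lower by a log2 fold change of -0.95. Dffb, the caspase-activated DNase, and Birc2, which encodes an inhibitor of apoptosis, were higher by 0.68 and 0.39, and when centred on the T-cell markers they were at 0.11, which did not pass, and at -0.18, which passed as lower.

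Of 20 regulators that act on BCL2 family genes or proteins 5 were higher, 10 lower and 5 did not pass, with a median of -0.14, and when centred on the T-cell markers 19 were lower and 1 did not pass (limma, median -0.71). Among all genes 27.5% were higher and 29% lower, and 65.9% were lower when centred. Ywhaz, a 14-3-3 protein of the kind that holds phosphorylated BAD in the cytosol, was lower by a log2 fold change of -0.72, and Bag1, a BCL2-binding cochaperone, by -0.69. Trp53, which encodes p53, and Foxo1 were higher by 0.45 and 0.33, and both changed sign when centred on the T-cell markers, to -0.12, which did not pass, and to -0.24, which passed as lower. Foxo3, an activator of Bcl2l11 transcription in lymphocytes, had a log2 fold change of -0.31. In these 3 lists 36 of 50 tested genes passed, where 56.5% of all genes did, and 44 passed when centred on the T-cell markers, where 70.7% of all genes did.

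**Figure D4:**
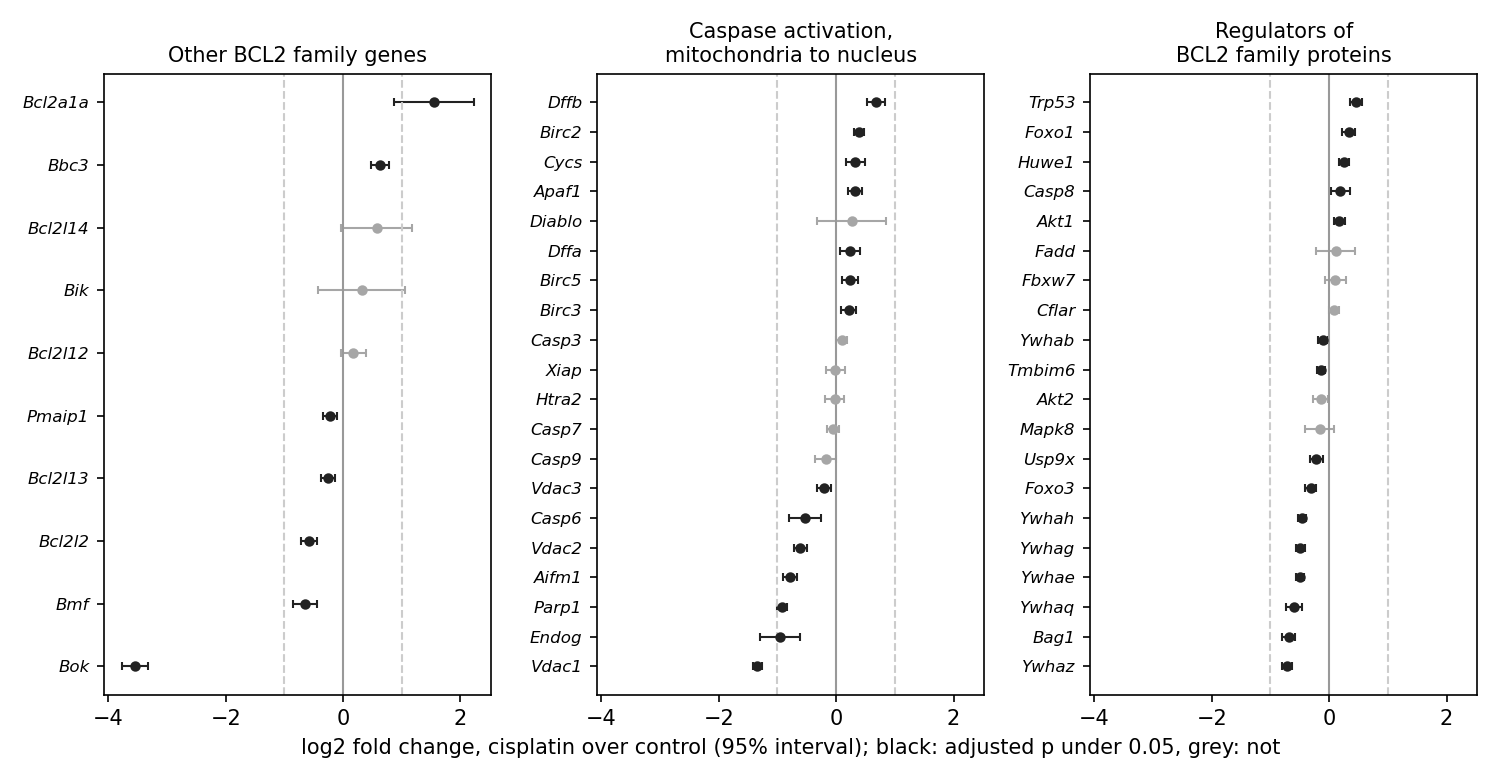
Log2 fold change, cisplatin over control, of the tested genes of 3 further lists with the 95% interval from limma on the deposited FPKM; black marks an adjusted p under 0.05, grey the others, and dashed lines 2-fold in either direction. Bok at -3.55, Bcl2a1a at 1.55 and Vdac1 at -1.34 lie outside the dashed lines; after centring on the T-cell markers the rises of Bbc3 and Dffb no longer pass, and Trp53, Foxo1 and Birc2 change sign.

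The genes whose levels ran most like those of Bcl2a1d, the gene with the largest change on the deposited scale, were Rps26, Anp32b and Rpl14, with Pearson correlations of 0.998, 0.998 and 0.996 over the 6 libraries, as a description. Of 8421 genes compared, 619 had a correlation of at least 0.95 with Bcl2a1d, and the 6 points share the difference between the groups.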

How the data were processed

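Poly-A RNA of the samples labelled T cells was sequenced after TRIzol extraction. The authors deposited FPKM, read counts scaled for gene length and for library depth. The submitters' processing notes name fastp, HISAT2 2.0.5, featureCounts 1.5.0-p3 and mm10, whereas the study's methods name LifeScope for alignment and counting; strand and multi-mapping settings are not given in the sources used here. Coordinates are those of the table, the same as in GENCODE M21 (GRCm38) for 53499 of 54409 genes found and for 9 of the 10 members (not Bad). Of the table's columns of samples, 0 were left unused. Whole reads were rebuilt from FPKM (100% of values above 0 within 0.1 of a whole read) and cover counting error only.

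limma 3.58.1 (R 4.3.3; lmFit and eBayes with trend) was fitted on log2(FPKM + 0.1) for genes whose mean reached 0.5 FPKM, so that folds of low genes are understated. Calls at 2-fold needed adjusted p under 0.05. The steps were tested on simulated data. The members and lists were chosen with earlier results of these data known. Named genes were all members and, in each further list, those called at 2-fold and the 2 largest and 2 smallest log2 fold changes among genes that passed, and Foxo3 was added after its values were seen. For the member with the largest change, the 3 genes with the highest correlation were named. Alternatives were other pseudocounts (1, 0.01), filters, scalings (median of ratios, quantile, T-cell markers, TPM), no trend, voom on rebuilt reads, protein-coding genes alone, a replicate block and leaving out each library.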

Additional observations from a re-analysis of the deposited data

How the results depend on the processing

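Of the 10 members 5 passed on the deposited scale, and 5 to 6 passed when any 1 library was left out (6 without control replicate 2, which adds Bak1). When centred on the T-cell markers 8 passed, 1 higher and 7 lower. The count was 6 after quantile normalization (5 higher) and 7 in voom on rebuilt reads (6 higher). With a mean of at least 5 FPKM, which leaves Bcl2a1b untested, 4 passed. Centring reversed Bcl2 (-0.47), Mcl1 (-0.11), Bak1 (-0.49) and Bid (-0.48), which follows from its construction, since it lowers every log2 fold change by the mean change of the 20 markers. The 0 members past 2-fold became 1 after quantile normalization, centring and voom, and 0 to 1 when 1 library was left out (1 without cisplatin replicate 1 or control replicate 3, Bcl2a1d in both). The count of genes called at 2-fold was 2687 (653 higher, 2034 lower), and it was 1762 (311 higher) with a pseudocount of 1 and 1145 (242 higher, 903 lower) with a mean of at least 5 FPKM, a setting with fewer genes tested. Centring gave 142 higher and 3717 lower, voom 1128 higher and protein-coding genes alone 255 higher. The depth behind the deposited FPKM was 1.030 to 1.049 times the reads on genes in cisplatin libraries and 0.976 to 0.982 times in control libraries. Voom was scaled by the reads on genes instead. The part of this difference in the counts and sign changes under voom was not tested. With the replicate number as a block 5 members passed, 0 of them past 2-fold, and 2662 genes were called; libraries with the same number did not deviate together (correlations of 0.0229, -0.063 and -0.0207), so they share only a number. The 6 within-library ratios kept their direction when any 1 library was left out and after quantile normalization, an alternative chosen after the data were seen, which moved Mcl1 to Bcl2l11 from 0.53 to 0.40 and Mcl1 to Bid from 0.37 to 0.22. Bcl2a1b, with 77 reads in its lowest library, is the member most limited by depth.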
